A study of Mus musculus with 7 samples.

Results

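Nfatc1 was mapped by CUT&Tag in mouse embryonic fibroblasts at an early point of chemical reprogramming, once with the solvent DMSO and once with R406, and the intergenic peaks that both lists hold are described here. A member is a row of the R406 peak list on chromosomes 1 to 19 or X, narrower than 2000 bp, that overlaps a row of the DMSO list by at least 1 bp. Its summit also had to lie outside every RefSeq gene and more than 3000 bp from every gene end, with genes taken from RefSeq on GRCm38.p6. The rule found 3628 members among 36885 rows of the R406 list, of which 15276 overlapped 1 or more of the 21246 rows of the DMSO list. Because overlap with the DMSO list chose the members, their heights in both lists are given as a description, with no test.

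The fibroblasts came from embryos at embryonic day 13.5 of OG2 mice (CBA-Tg(Pou5f1-EGFP)2Mnn/J), in which the Pou5f1 promoter drives an EGFP reporter. For CUT&Tag, cells were infected with lentiviruses for rtTA and TetO-Flag-Nfatc1, kept with doxycycline in Stage 1 medium, and given DMSO or R406 for 4 days. The antibody was against FLAG, so its target was a tagged, induced Nfatc1 and not the cells' own protein. A blank library without primary antibody was not analysed here. How much of a peak is signal that does not depend on that antibody was therefore not tested. For RNA-seq, 2 libraries of cells given DMSO and 2 of cells given R406 were taken from a Stage 1 protocol of 12 days, and their labels name no Nfatc1 virus. All groups shared Stage 1 medium, with bFGF, vitamin C, forskolin, CHIR99021, VPA, AM580, EPZ004777, Parnate and 616452. The dose of R406 is not given in the labels. R406 inhibits Syk, a kinase that signals from immune receptors to calcium release.

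NFAT proteins are transcription factors that calcium controls. Calcineurin, a phosphatase switched on by calcium, removes phosphates from NFAT, which then enters the nucleus and binds a short core, GGAAA, often next to AP-1 factors such as Fos and Jun. Distal elements between genes are where many tissue-specific transcription factors bind, and one element may act on a gene that is not the closest one. Naming the closest gene to a peak is therefore a way to place it, not a statement of what it controls.

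The labelled cell type was checked against its markers in RNA. All 12 fibroblast markers were at 1 TPM (a transcript abundance scaled to the same total in each library) or more in all 4 libraries, with summed levels of 4809.1 and 3791.9 TPM with DMSO and 5776.0 and 3978.6 TPM with R406. Macrophage markers summed to 284 and 240 TPM with DMSO and to 21.6 and 22.8 TPM with R406, and 8 of the 9 tested were lower with R406 by limma at an adjusted p under 0.05. Epithelial markers summed to 161 and 157 TPM with DMSO and to 849 and 489 TPM with R406, and 9 of 10 were higher by the same test. No marker of these 3 lists was at 0 in all libraries. Every limma call given here needs the filter of a mean of 1 TPM: with no filter on low values limma called 0 of 27879 genes, with 2639 higher and 2755 lower at an unadjusted p under 0.05. In bulk RNA, fewer cells of a type and less RNA per cell cannot be told apart.

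Several genes next to members also had a shared peak over their own start. Start sequences are shown for 3 such genes with 3 or more members each, described below. The genes were the mesenchymal regulator Twist1, the fibrillar collagen gene Col3a1 and the secreted protease gene Adamts1, a known target of NFAT signalling. Each sequence is the 200 bases before the RefSeq start on GRCm38.p6, written 5′ to 3′ along the gene. Capitals mark matches to the NFAT core GGAAA on either strand (TTTCC on the other strand). The choice of starts was made after values were seen, among named genes with a row of at least 50 overlapping reads or fragments there in the R406 list. The sequence under the members themselves was not analysed here.

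Twist1, plus strand, chr12:33957471-33957670: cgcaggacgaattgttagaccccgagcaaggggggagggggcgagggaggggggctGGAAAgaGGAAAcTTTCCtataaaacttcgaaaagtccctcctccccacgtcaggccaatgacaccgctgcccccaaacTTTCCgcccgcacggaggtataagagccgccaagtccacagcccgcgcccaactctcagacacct

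Col3a1, plus strand, chr1:45311338-45311537: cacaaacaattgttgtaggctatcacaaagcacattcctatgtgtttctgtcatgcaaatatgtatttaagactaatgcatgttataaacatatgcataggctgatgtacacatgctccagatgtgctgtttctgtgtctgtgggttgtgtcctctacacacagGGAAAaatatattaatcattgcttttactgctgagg

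Adamts1, minus strand, chr16:85803114-85803313: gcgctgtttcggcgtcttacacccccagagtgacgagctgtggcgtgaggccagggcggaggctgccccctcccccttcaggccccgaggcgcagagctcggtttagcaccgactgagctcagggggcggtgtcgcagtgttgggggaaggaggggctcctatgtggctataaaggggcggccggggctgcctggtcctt

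The Twist1 window held 4 core matches, that of Col3a1 held 1 and that of Adamts1 held 0. The starts of Fosl2 and Prrg4 also had a row of at least 50. Their windows, not printed, held 0 core matches each. Among 32619 RefSeq start windows of this length, 47.8% held GGAAA on either strand, so a match by itself is common. The AP-1 motif TGANTCA (either strand, any base at N) matched 0 times in all 3 windows and was in 5.51% of all windows. With 0 AP-1 matches, an overlap of the 2 motifs was not possible in any of the 3. A shared peak covered each of the 3 starts printed. The summit pileup was 103 with R406 and 40 with DMSO at Twist1, 56 and 27 at Col3a1, and 78 and 23 at Adamts1. At Twist1 and Adamts1 that peak was 2000 bp or wider.

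Pileup here means the number of reads or fragments that overlap at the summit; the sources do not say which of the 2 was piled up. It was worked back from the deposited fold enrichment, which equals pileup plus 1 over background plus 1. Most rows stood on 1 fixed background per library, 0.373 with DMSO and 0.581 with R406, so the R406 list comes from a library with a background 1.56 times as high. A value called "pileup over background" is the summit pileup divided by that fixed background. Pileups given as pairs are not divided by it, so an equal pair is lower with R406 in pileup over background. There was 1 CUT&Tag library for each condition, so no difference between the conditions has a replicate check. Intervals on a pileup are exact Poisson intervals at 95% and cover counting error only.

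Members were taller than the intergenic R406 rows that had no DMSO partner. Their median summit pileup was 21 with R406 (quartiles 14 and 34) and 13 with DMSO (quartiles 9 and 20), while the 5931 intergenic R406 rows without a partner had a median of 10. Of all 9559 intergenic R406 rows narrower than 2000 bp, 38.0% were shared (exact binomial interval 37.0 to 38.9%). This interval treats rows as independent and does not cover the spread between libraries. The share was 37.3% inside genes and 45.8% at gene ends. Height went with sharing in all 3 positions. Among intergenic rows, 9.06% of those with a pileup under 10 were shared, 46.6% of those from 15 to 19, 84.1% of those from 30 to 39 and 98.7% of those at 60 or more. Rows inside genes at the same heights were shared in 8.24%, 45.8%, 85.8% and 97.6% of cases, so the intergenic position changed the share by a few points at most at a given height. From the other list, 68.9% of 5395 intergenic DMSO rows had an R406 partner.

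**Figure D1:**
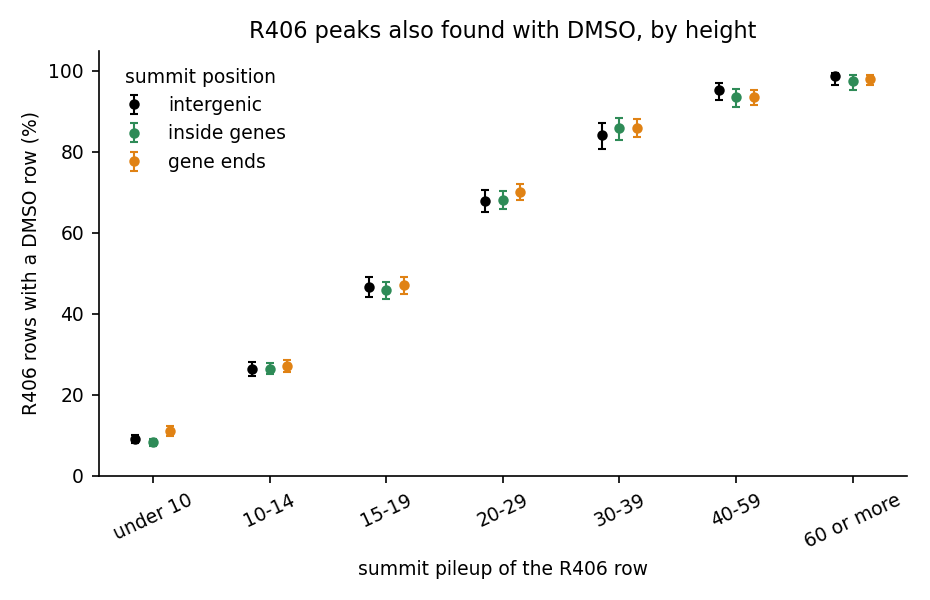
Percent of R406 peak rows under 2000 bp that overlap a DMSO row (y axis), by summit pileup of the R406 row (x axis, reads or fragments), for summits between genes, inside genes and at gene ends; bars are exact 95% binomial intervals. The bars treat rows as independent and do not cover the spread between libraries. The 3 positions follow one another from about 10% in the lowest rows, 9.06% between genes, to 98.7% in the highest intergenic rows.

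The summits of a member lay close together in both lists, which the rule of overlap between rows of limited width partly fixes. The median distance between the R406 summit and that of its DMSO partner was 94 bp, and 52.9% of pairs were within 100 bp. The same median was 91 bp inside genes and 99 bp at gene ends. Pileups of the 2 lists went together across the 3628 members, with a Pearson r of 0.742 on log2 pileup and a Spearman rho of 0.584. Both numbers describe regions chosen for presence in both lists, and a region's base composition and mappability are the same in both libraries. Members were wider in the R406 list in 2401 cases (66.2%) and wider in the DMSO list in 1215. Nearly all, 3589 members, had 1 DMSO partner, and 39 had 2.

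Members were, in the middle, equally tall in both libraries once each pileup was divided by its library's background. That scale was chosen after the data were seen. The median log2 ratio of R406 over DMSO was 0.38 in the deposited fold (quartiles -0.06 and 0.87) and 0.00 in pileup over background (quartiles -0.47 and 0.51). The added 1 in the deposited fold lowers the fold of the library with the smaller background more, so the 2 scales differ. With each fold divided by the median over all shared rows of its own list, the median was -0.07. Shared rows inside genes had the same 2 medians, 0.38 and 0.00. Shared rows at gene ends had 0.60 and 0.22, and the median over all shared rows was 0.48 and 0.10. No library was replicated, so this difference between positions was not tested.

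Distance from a gene made no visible step among the members. Their median log2 ratio in pileup over background was 0.01 from 3 to 10 kb of a gene end (1105 members) and 0.00 in each of the 3 bins beyond that, from 10 to 30 kb (1303), from 30 to 100 kb (948) and over 100 kb (272). Within 1 kb of a gene end the median of shared rows was 0.29, and from 1 to 3 kb it was 0.04. Median pileups of the 4 intergenic bins were 20 or 21 with R406 and 13 with DMSO. Values on both sides of the limits of the rule overlapped: the closest members, 3005, 3017 and 3017 bp from a gene end, had R406 pileups of 40, 20 and 25, and the nearest rows left out, at 3000, 2997 and 2986 bp, had 27, 17 and 62. The widest members, 1999, 1997 and 1984 bp, had 41, 23 and 46, and the narrowest rows left out, 2004, 2034 and 2037 bp, had 50, 65 and 21.

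**Figure D2:**
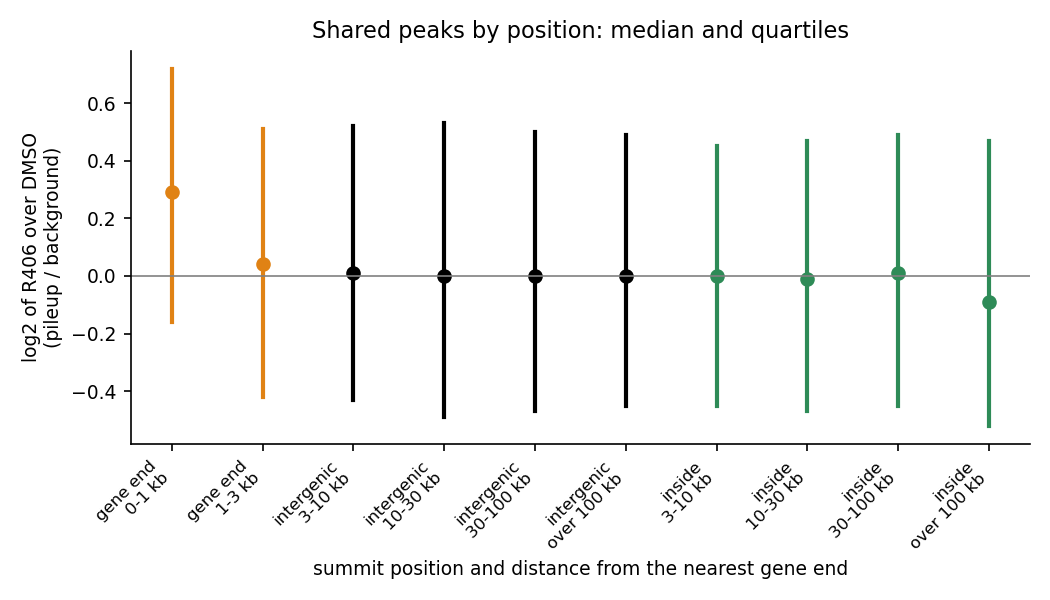
Median (point) and quartiles (bar) of the log2 ratio of R406 over DMSO summit pileup, each divided by its library's background (y axis), for shared rows grouped by position and distance from the nearest gene end (x axis). Intergenic and gene-body bins centre near 0, and rows within 1 kb of a gene end centre at 0.29.

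Few members stood far from that centre. Relative to the median of all shared rows, 236 members (6.50%) were at least 2-fold higher with R406 in pileup over background, where 7.27% of all shared rows were, and 387 (10.7%) were at least 2-fold lower, where 8.38% of all shared rows were. The corresponding shares were 5.87% and 10.6% inside genes and 8.65% and 5.56% at gene ends. The members' split therefore resembles that of rows inside genes. Since both heights are from rows the rule chose and from 1 library each, nothing is read from these shares beyond their size.

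**Figure D3:**
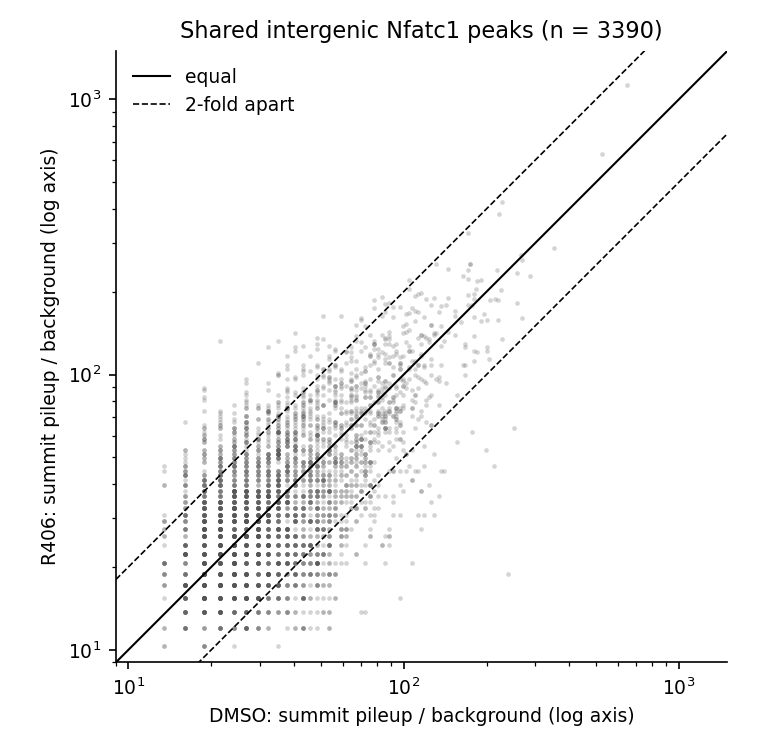
Summit pileup divided by the library's background in DMSO (x axis, log) and R406 (y axis, log) for the 3390 members whose rows stand on the fixed background in both lists; each point is a member, the solid line marks equality and the dashed lines a 2-fold difference. Most points lie between the dashed lines, and the vertical and horizontal bands at the lower left are whole-number pileups.

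The 8 members with the highest deposited R406 fold were not set off from the rest by a gap, and members on a high local background, given below, had higher pileups with lower folds. The highest fold, 414, belonged to chr1:195241325-195241991, which had a pileup of 653 with R406 (604 to 705) and 242 with DMSO (212 to 274), and lay 44.6 kb from the pseudogene Gm29726, with the complement receptor gene Cr2 the nearest coding gene at 64.9 kb. The second, chr4:47504706-47505817, had 369 and 196, and lay 10.4 kb upstream of the noncoding gene Gm42283 and 22.0 kb from Sec61b, a subunit of the translocon of the endoplasmic reticulum. The third, chr19:61266369-61267209, had 246 and 85. The member chr15:83214881-83216500 had 223 and 83 and lay 10.9 kb past the end of A4galt, a glycosyltransferase gene. Another, chr12:51864975-51866783, had 189 and 64 near Heatr5a. The member chr7:67390150-67391481, 14.6 kb upstream of the start of Mef2a, had 168 and 131. Mef2a encodes a MADS-box transcription factor that calcineurin signalling is also known to act on. The last 2, near Gm46138 and Gm9722, had 158 and 99, and 177 and 90.

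These 8 were high in both libraries. Pileup over background differed least in the Gm46138 member, with a log2 ratio of 0.03, and most in the Heatr5a member, with 0.92, and the Mef2a member was the only one of the 8 below 0, with -0.28. High R406 fold chose them, so a ratio above 0 is partly the rule itself.

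Among members at or above the median fold of shared rows in at least 1 list, the ratio ran widest where 1 of the 2 rows was close to the calling limit. The highest ratio was at chr18:43493725-43494710, 16.4 kb from Eif3j2, with a pileup of 77 with R406 (60.8 to 96.2) and 8 with DMSO (3.45 to 15.8). The next 4 had R406 pileups of 47 to 52 against 7 with DMSO, near Gm46138, Gm7598, A430057M04Rik and Rtkn2. At the other end, chr2:117016824-117017163 had 11 with R406 (5.49 to 19.7) and 89 with DMSO (71.5 to 110.0), and lay 38.6 kb from the pseudogene Gm13981. A member between Dusp1, a phosphatase that switches off MAP kinases, and Gm34606 had 12 and 40, at chr17:26531840-26532113, 23.4 kb from Dusp1. The member near 4930471E19Rik had 9 and 36 and that near Gm33538 had 8 and 27. The member near Psmb7 differed only in the deposited fold, 2.93 and 12.7, since its pileups were 36 and 31 and its local backgrounds 11.6 and 1.52.

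Some members stood on a local background in place of the fixed one. In the R406 list this held for 226 members (6.23%), of which 173 had a local background over 2 times the fixed one, and in either list for 238. The highest local background belonged to chr2:98666644-98667304, at 27202.1 with R406 and 17609.1 with DMSO, where the deposited folds were only 8.84 and 11.3. Members at the very start of the assembled part of chromosome 9, such as chr9:3006321-3008136, and past the last gene of chromosomes 7, 12, 14, 16 and 19 were of the same kind. How reads that map to repeats were handled is not stated in the sources. Without these 238 members the median log2 ratio in the deposited fold was 0.38 as before.

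Members were spread over gene deserts and close flanks alike. Their median distance from a gene end was 18069.5 bp (quartiles 8299.2 and 39888 bp), and 272 of them (7.5%) were over 100 kb away. The nearest gene was a long noncoding RNA gene for 39.5%, a protein-coding gene for 34.4% and a pseudogene for 19.4%. Counting coding genes only, the median distance was 51884 bp. Of the 2063 members whose nearest gene has a strand in the table used, 46.6% (exact binomial interval 44.4 to 48.8%) lay upstream of the start and the others past the far end. For the remaining 43.1% of all members no strand was listed, so their side is not known. The interval treats members as independent, but 30.7% of all members lay in groups, described below, that can share a gene and a side. The interval may therefore be too narrow, and no preference for a side is read from it. The farthest member, chr4:80002330-80002704, was 506830 bp from any gene end and had a pileup of 35 with R406 and 45 with DMSO. A neighbour, chr4:80004405-80004765, had 15 and 15. Both stood on local backgrounds above the fixed one. The member chr4:30216123-30217678, 448 kb from a gene end, had 48 and 34, and its nearest coding gene, the ephrin receptor gene Epha7, was 1249 kb away.

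Many members had another member close by. When members whose summits lie within 12.5 kb of the next were joined, 482 groups of 2 or more held 1114 members (30.7%), and 2514 members stood alone. Most groups, 382, had 2 members, and 11 had 5 or more. Members in groups were no taller than single ones: both had a median R406 pileup of 21, and DMSO medians were 14 and 13. Their median log2 ratio was -0.06 in groups and 0.03 in single members.

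The largest group, of 8 members, spanned 45.2 kb at chr1:91652441-91697599, between the coding genes Asb1 and Twist2, with the noncoding gene Gm28380 nearest. Its R406 pileups ran from 9 to 47 and its DMSO pileups from 10 to 48, with a median log2 ratio of -0.50. Twist2, a basic helix-loop-helix factor of mesenchyme like Twist1, had 5 more members nearest to itself, from 10.2 to 46.0 kb from its ends. Their pileups were 12 with R406 and 7 with DMSO, 23 and 11, 28 and 15, 12 and 21, and 34 and 26. The fourth, 16.9 kb from the start of the gene, was the one with a large difference, at a log2 ratio of -1.45. Twist2 RNA averaged 324 ± 154 TPM with DMSO and 145 ± 61.3 TPM with R406 (SD, n = 2 each), with 215 TPM in the lower DMSO library and 188 TPM in the higher R406 library. The groups did not overlap, but the change did not pass the test (log2 change -1.14, SE 0.46, limma adjusted p = 0.200).

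The second group was 7 members in the 24.5 kb after Twist1, at chr12:33963785-33988244, from 4.10 to 28.2 kb past its far end. From the gene outwards their pileups were 11 with R406 and 7 with DMSO, 13 and 8, 33 and 10, 15 and 8, 32 and 14, 13 and 11, and 15 and 11. The third and the fifth were the tallest with R406, and the third had the highest log2 ratio of the group, 1.08. An eighth member lay 81.3 kb away, nearest to Hdac9, a histone deacetylase gene in which enhancers of Twist1 are known to lie, and had 46 and 34. Twist1 RNA was high and overlapped between the conditions, at 1483.9 and 914 TPM with DMSO and 1437.8 and 863 TPM with R406 (log2 change -0.06, limma adjusted p = 0.936).

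Of 4 groups with 6 members each, one lay beside Mmp2, the gene of gelatinase A, a protease that cleaves collagen IV and denatured collagen. It spanned chr8:92794287-92818629, from 9.12 to 32.8 kb from Mmp2. From the farthest to the nearest member the pileups were 22 with R406 and 23 with DMSO, 13 and 25, 30 and 25, 25 and 18, 12 and 18, and 11 and 7. In pileup over background 5 of the 6 were lower with R406, with a median log2 ratio of -0.54. Over all members 50.1% were lower on this scale, and nothing is read from a count among 6. Mmp2 RNA was at 1283.5 and 871 TPM with DMSO and at 598 and 404 TPM with R406, groups that did not overlap, and the change did not pass the test (log2 change -1.10, SE 0.31, limma adjusted p = 0.10). The other 3 groups of 6 were nearest to Gm27166, with Ets1, an ETS family factor, as the nearest coding gene; to the pseudogene Vmn1r-ps2; and to Gm10232, where the local background reached 12.7.

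**Figure D4:**
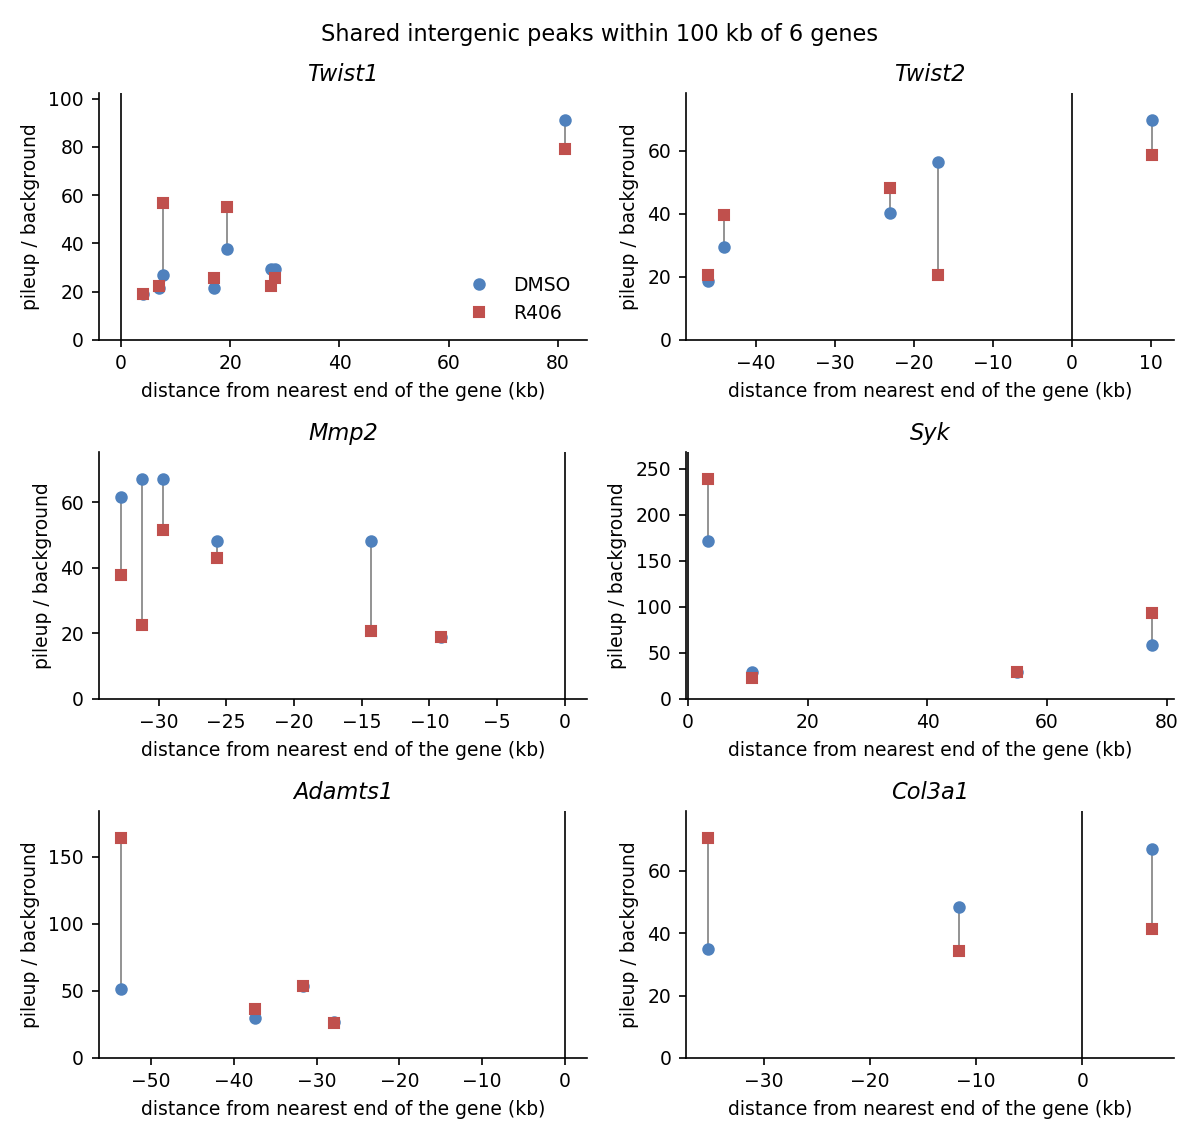
Summit pileup over background (y axis) of members within 100 kb of Twist1, Twist2, Mmp2, Syk, Adamts1 and Col3a1, by distance of the summit from the nearest end of the gene in kb (x axis, negative towards lower chromosome positions, the vertical line at the gene); circles are DMSO, squares R406, and grey lines join the 2 values of a member. The member 3.30 kb past Syk and the one 53.7 kb past Adamts1 are the tallest in their panels. At Mmp2 5 of 6 R406 values are below DMSO, where 50.1% of all members are.

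Genes of the NFAT pathway itself were then looked up by role. Of 31 genes listed from Syk to the NFAT factors, 4 were the nearest gene of a member within 100 kb (12.9%), as were 2 of 29 known NFAT targets (6.90%) and 921 of 21627 protein-coding genes (4.26%). With so few genes nothing is read from these shares. By RNA, 0 of the 27 tested pathway genes rose and 1 fell, and 1 of the 13 tested targets rose and 1 fell, none of them next to a member, where limma called 4.26% of all tested genes higher and 4.05% lower. Counts this small are near that background.

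Syk, the kinase that R406 inhibits, had a tall member 3.30 kb past its far end, at chr13:52651524-52652649. Its pileup was 139 with R406, rank 46 of 3628, and 64 with DMSO, rank 80. A second member 10.6 kb past the gene had 13 and 11. In pileup over background the first was higher with R406 (log2 ratio 0.48) and the second lower (-0.40). Syk RNA was low, at 0.958 and 1.23 TPM with DMSO and 1.74 and 1.02 TPM with R406 (log2 change 0.17, limma adjusted p = 0.705). The groups overlapped.

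Nfatc2, a second NFAT factor, had a member 10.3 kb past its end with pileups of 28 with R406 and 9 with DMSO, and its RNA was under 1 TPM on average in both groups and was not tested. Rcan3, an inhibitor of calcineurin, had one 5.82 kb past its end with 45 and 9, a log2 ratio of 1.68. Rcan3 RNA was at 8.23 and 6.74 TPM with DMSO and at 13.8 and 11.5 TPM with R406, and did not pass the test (limma adjusted p = 0.118). Stim2, a calcium sensor of the endoplasmic reticulum that opens the store-operated channel, had one 59.3 kb past its end with 34 and 15. Stim2 RNA had an adjusted p of 0.279 by limma. Nfatc1 had no member nearest to it. Its RNA in the 12-day cultures was at 2.41 and 2.98 TPM with DMSO and at 7.36 and 5.45 TPM with R406 (log2 change 0.99, limma adjusted p = 0.0659).

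Adamts1 had 4 members, from 27.9 to 53.7 kb past its far end. The farthest, chr16:85739713-85741180, had a pileup of 95 with R406 and 19 with DMSO and ranked 102 and 971 of 3628, with a log2 ratio of 1.68. The other 3 had 21 and 11, 31 and 20, and 15 and 10, and differed little over background. Adamts1 RNA was alike, at 12.9 ± 1.55 TPM with DMSO and 12.2 ± 0.861 TPM with R406 (SD, n = 2 each, overlapping groups, limma adjusted p = 0.871). Atp6v0d2, a proton pump subunit of osteoclasts and a target of Nfatc1 there, had 1 member with 18 and 13 and RNA under 1 TPM.

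Of 13 AP-1 genes, Fos, Fosb and Fosl2 had members. That of Fos, 8.77 kb past its end, had 47 with R406 and 17 with DMSO. Fosb had 1 with 12 and 9. Fosl2 had 2, the taller with 14 and 9, besides a shared peak over its start with 88 and 36. Fosl2 was the most abundant of the 3, at 52.6 and 47.2 TPM with DMSO and 40.7 and 37.3 TPM with R406 (limma adjusted p = 0.303), and Fos RNA did not pass the limma test either (adjusted p = 0.557). Of the 12 AP-1 genes tested, 0 rose and 1 fell, against 4.26% and 4.05% of all tested genes.

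Developmental regulators next to members numbered 12 of 228 (5.26%), among them Foxl1, Foxp1, Pax3, Runx1, Sox7, Sox9, Tbx15, Twist1, Twist2, Zeb1 and Zeb2. The tallest member nearest to any of these was that of Zeb1, which represses epithelial genes, with 44 and 40. Sox9, a factor of cartilage and other lineages, had a member 11.8 kb away with 42 and 15. By RNA, 11 of the 146 tested genes of the list rose and 3 fell (4.26% and 4.05% of all tested genes), and of the 11 tested next to members 1 rose, Sox7, described with the nearest genes below.

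Matrix genes and their proteases had members at 18 of 138 (13.0%), where 4.26% of all coding genes had one, including the small proteoglycan genes Dcn and Lum. Of 96 tested genes of the list 14 rose and 9 fell, where 4.26% and 4.05% of all tested genes did, and among the 15 tested next to members Col3a1 and Col11a1 rose and Timp2 and Fbln2 fell. Col3a1 was at 215 and 252 TPM with DMSO and at 786 and 616 TPM with R406 (log2 change 1.58, SE 0.22, limma adjusted p = 0.0257). Its 3 members did not move together: 41 with R406 and 13 with DMSO at 35.2 kb, 20 and 18 at 11.6 kb, and 24 and 25 at 6.55 kb. Timp2, an inhibitor of metalloproteinases that also takes part in the activation of Mmp2, was at 749 and 630 TPM with DMSO and at 209 and 172 TPM with R406 (log2 change -1.85, SE 0.21, adjusted p = 0.0183). Its member, 16.6 kb upstream of the start, had 34 and 26. Mmp14, which activates Mmp2 at the cell surface, had a member 3.28 kb past its end with 16 and 8, and its RNA, at 615 and 405 TPM with DMSO and 290 and 152 TPM with R406, did not pass the test (adjusted p = 0.126). The calls of Col3a1 and Col11a1 were lost without either DMSO library and that of Timp2 without DMSO replicate 1. The largest adjusted p over these fits was 0.116, 0.0887 and 0.0745.

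Secreted factors had members at 18 of 199 genes (9.05%, beside 4.26% of coding genes). In the whole list 10 of 130 tested genes rose and 24 fell, where 4.26% and 4.05% of all tested genes did. Of the 14 tested next to members, 0 rose and 5 fell (Cxcl15, Sfrp1, Slit3, Wnt16 and Wnt2b), and their median log2 change was -0.51, where all 130 tested genes of the list had -0.23 and all tested genes -0.02. Sfrp1, a secreted antagonist of Wnt ligands, was at 570 and 596 TPM with DMSO and at 190 and 178 TPM with R406 (log2 change -1.66, adjusted p = 0.0174). Its member, 32.5 kb away, had 17 with R406 and 23 with DMSO. Wnt16 was at 15.5 and 12.9 TPM with DMSO and 3.16 and 4.19 TPM with R406, with a member of 22 and 10 located 7.67 kb upstream. Wnt2b was at 113 and 102 TPM with DMSO and 56.5 and 49.9 TPM with R406, with a member of 30 and 6. Slit3, a guidance ligand, was at 122 and 85.9 TPM with DMSO and 35.2 and 24.5 TPM with R406, with a member of 11 and 15. These 4 calls were lost in the limma fit without DMSO replicate 1, Sfrp1 also without DMSO replicate 2 and Wnt2b in every fit that left out a library. The tallest member next to a secreted factor was that of Dkk3, 5.56 kb away, with 98 and 50, and Dkk3 RNA did not pass the test (adjusted p = 0.268).

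RNA of all nearest genes was then compared between R406 and DMSO. Over all 13929 genes whose mean over the 4 libraries reached 1 TPM, limma called 593 higher with R406 (4.26%) and 564 lower (4.05%) at an adjusted p under 0.05. The labels do not say that the 2 libraries of a group came from separate cultures, so these p-values measure the spread between libraries, which may be technical. Within 100 kb the members had 2493 nearest genes, of which 1748 had a row in the TPM table by symbol and 734 passed the filter on low values. Of these, 26 were higher (3.54%) and 55 lower (7.49%), with a median log2 change of -0.17 beside -0.02 over all tested genes. The lower share is above the 4.05% of all genes and the higher share near the 4.26%. Without DMSO replicate 1 the counts were 3 and 10, without DMSO replicate 2 they were 11 and 31, and with no filter on low values limma called 0 of 1210 nearest genes in either direction (103 and 214 at an unadjusted p under 0.05). The median log2 change of the nearest genes was below 0 in each alternative run.

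Other sets of genes were counted in the same fit. For nearest genes of intergenic rows in the R406 list alone, 6.14% of 1172 tested were higher and 6.66% lower, and for those in the DMSO list alone, 2.99% of 368 and 8.70%. One gene can belong to more than one of these sets. Counting the nearest coding gene in place of any gene, 51 of 1200 were higher (4.25%) and 103 lower (8.58%), where 4.45% and 4.46% of all 11989 tested coding genes were. Genes with a member upstream of the start were higher in 3.15% and lower in 10.1% of 286, and those with a member past the far end in 5.09% and 5.82% of 275. These differences between sets were not tested. Coding genes next to a member had a shared peak row over their start window in 32.3% of 716 cases, and all coding genes with such a window in 19.7% of 17273.

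Among called nearest genes the rise was largest for Ccdc3, at 8.73 and 9.48 TPM with DMSO and 57.9 and 44.1 TPM with R406 (log2 change 2.35, SE 0.22, limma adjusted p = 0.0148). Its member, 3.58 kb past the gene, had 18 with R406 and 12 with DMSO, a log2 ratio of -0.06 in pileup over background. Moxd1, a copper-dependent monooxygenase gene, was at 1.21 and 1.16 TPM with DMSO and 9.33 and 9.55 TPM with R406, and had 2 members, the taller with 28 and 13. Ifitm1, an interferon-induced membrane protein, was at 36.9 and 44.1 TPM with DMSO and 181 and 163 TPM with R406, with a member of 13 and 6. Sox7, a factor of endoderm and endothelium, was at 6.89 and 8.19 TPM with DMSO and 40.4 and 28.9 TPM with R406, with a member of 19 and 9 at 11.6 kb. It is 1 of 8 tested markers of extraembryonic endoderm, of which 5 rose, where 4.26% of all tested genes did. The full list, untested markers included, summed to 236 and 248 TPM with DMSO and 453 and 322 TPM with R406. The part of these markers in the rise of Sox7 was not tested. In each of these 4 genes both R406 libraries were above both DMSO libraries, which follows from their choice as the largest called rises.

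Ap1s3, Chst1, Krtdap, Tril, Cdkn3 and Fkbp5 were the other 6 of the 10 largest rises, with log2 changes of 1.58 to 2.16. Tril, an accessory protein of a Toll-like receptor, had the tallest member of the 10, with 54 with R406 and 53 with DMSO (log2 ratio -0.61). Fkbp5, an immunophilin that glucocorticoids induce, had one with 26 and 10 (log2 ratio 0.74). Without DMSO replicate 1 the calls of Sox7 and of these 6 were lost, and those of Chst1 and Tril also without DMSO replicate 2. Ccdc3, Moxd1 and Ifitm1 passed in each fit that left out a library.

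The largest fall was that of C1qb, a subunit of the first complement component made by macrophages, at 16.4 and 9.52 TPM with DMSO and 0.404 and 0.0614 TPM with R406 (log2 change -3.47, SE 0.32, limma adjusted p = 0.0149). Its member, 5.03 kb past the gene, had 17 with R406 and 7 with DMSO. The macrophage marker list fell with it, as given above, and its part in this and other falls was not tested. Spp1, which encodes osteopontin, a secreted matrix protein that macrophages and bone cells also make, was at 288 and 162 TPM with DMSO and 33.8 and 37.5 TPM with R406, and had 2 members upstream, the taller with 18 and 11. Fbln2, a matrix glycoprotein, was at 220 and 126 TPM with DMSO and 31.7 and 19.9 TPM with R406, with a member of 15 and 11. Ccn3, a secreted matricellular protein, was at 10.2 and 9.43 TPM with DMSO and 1.07 and 0.928 TPM with R406, with a member of 32 and 13.

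Prrg4, Rxfp3, Cadm2, Akr1c18, Dusp4 and Cxcl15 made up the other 6 falls, with log2 changes of -2.33 to -1.98. Prrg4, a membrane protein with a Gla domain, was at 9.12 and 12.8 TPM with DMSO and 0.961 and 1.80 TPM with R406, and had a shared peak over its start with 56 and 16 besides its member of 22 and 20. Dusp4, a phosphatase of MAP kinases, lost its call without DMSO replicate 1, and the other 9 of these 10 falls passed in each fit that left out a library. Heights of the members went either way around both sets of genes: the log2 ratio of the tallest member ran from -0.88 to 0.90 at the 10 rises and from -1.50 to 0.66 at the 10 falls.

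**Figure D5:**
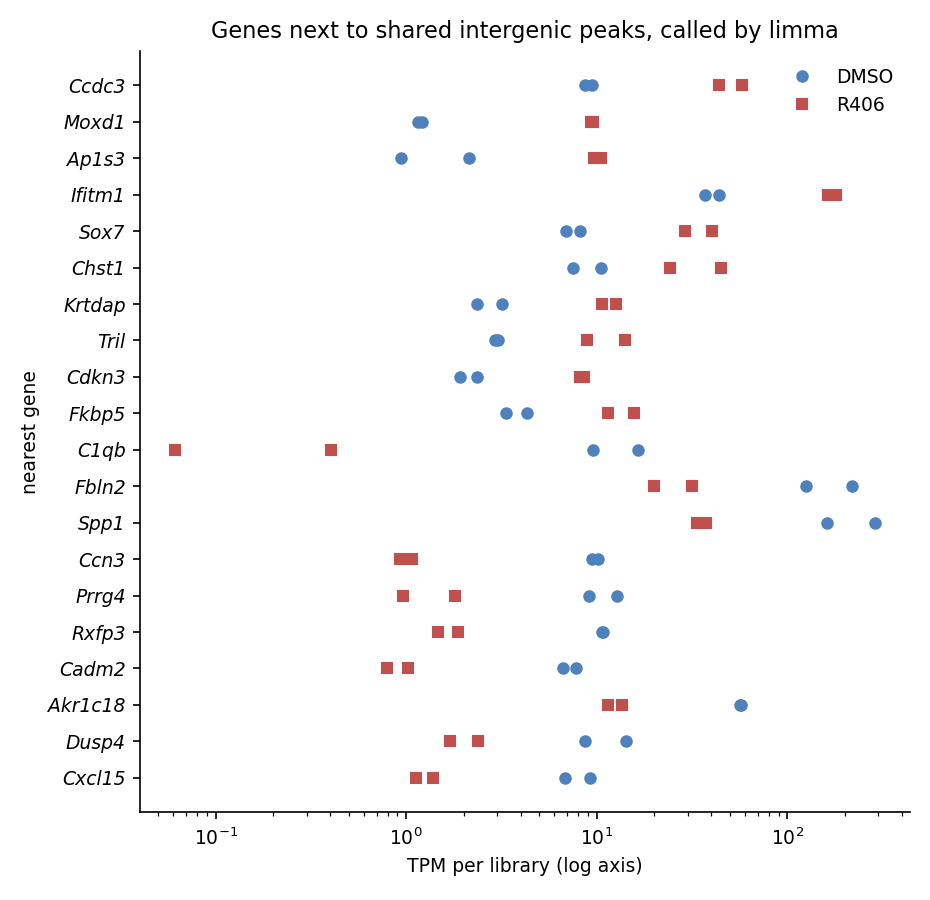
TPM in each RNA library (x axis, log) of the 20 nearest genes named for the largest changes among limma calls (y axis); circles are the 2 DMSO libraries and squares the 2 R406 libraries. The groups do not overlap in any of the 20, which their choice by limma calls fixes, and C1qb spans the widest range, from 16.4 to 0.0614 TPM.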

How the data were processed

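RNA-seq (4 libraries) and CUT&Tag peaks (2 libraries, 1 per condition) were used. Per the submitters' processing notes, tools included HISAT2 2.1.0 and StringTie 2.0 for RNA, and Bowtie2 2.2.5 and MACS2 2.1.2, on mm10, with settings not stated. The authors deposited TPM per gene, which keeps no read depth, and peak lists with a fold ratio and a score for each peak, beside −log10 of the p-value and of the q-value. Pileups were recovered from the deposited fold, with a tolerance of 0.002 of a step, and from p where the background was local. The recovery was tested on simulated data, as was limma.

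R406 and DMSO were compared with limma 3.58.1 (R 4.3.3) on log2(TPM + 1), with a variance trend, two-sided, Benjamini-Hochberg adjusted over genes averaging 1 TPM or more. Folds on this scale understate changes of low genes. TPM rows were joined to RefSeq genes by symbol (75.4% matched). Reads of overlapping genes or near-identical copies may be split between them. Named regions had the highest R406 fold, the highest and lowest ratios, the largest groups and the greatest distances. Named genes were the 10 largest called changes per direction and list genes next to members. One list gene is not reported here. Members and lists were chosen with earlier results of these data known. Alternatives are given at the end.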

Additional observations from a re-analysis of the deposited data

How the results depend on the processing

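The number of members stayed within 1.5 times of 3628 under the alternatives run, from 2523 (more than 10000 bp from every gene end) to 4207 (more than 1000 bp). The median log2 ratio in the deposited fold, 0.38, was 0.37 with a reciprocal overlap of 50%, turned to -0.07 with each fold divided by the median of its list's shared rows, and was 0.00 as pileup over background, an alternative chosen after seeing the data. Motif counts under the peaks, with their window alternatives, were not run, since no genome was used here.

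Over all genes, calls higher and lower with R406 were 593 and 564. They were 311 and 332 with a mean of at least 5 TPM, 0 and 0 with no filter (2639 and 2755 at an unadjusted p under 0.05), 877 and 850 with quantile normalization and 933 and 755 with median centring. Among nearest genes the counts, 26 and 55, were 17 and 42 with a mean of at least 5 TPM, 0 and 0 with no filter, 39 and 75 with quantile normalization and 40 and 73 with median centring. The same counts were 16 and 35 within 20000 bp, 53 and 97 with a gene on each side, and 51 and 103 with coding genes. There the set of genes itself changes, and the number tested with it, so these counts are not comparable in size with 26 and 55. As shares, coding genes had 4.25% and 8.58% of 1200 tested, beside 3.54% and 7.49% of 734 in the main set. For the other alternatives the cause was not tested. Leaving out 1 library gave 159 to 914 higher and 158 to 574 lower calls over all genes, and 3 to 36 and 10 to 57 among nearest genes; the lowest were without DMSO replicate 1, and the 914 without R406 replicate 2. Without RNA libraries in turn, 12 of 28 named calls passed in each fit, 16 were lost without DMSO replicate 1 and 6 without DMSO replicate 2. With no filter all 28 were lost.

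With the replicate number as a block, calls were 2128 and 2535 over all genes and 94 and 217 among nearest genes. Of named genes without a call, 17 gained one under the block, among them Mmp2, Mmp14, Twist2, Rcan3 and Nfatc1, and 0 named calls were lost. Deviations of same-numbered libraries from their group means correlated at 0.556. With 2 numbers only, this is a single value, and the opposite pairing has the opposite sign by construction. The labels tie no number to a culture or day, so whether the numbers mark pairs is not known. The TPM files give no depth, and pileups under about 10 leave wide counting intervals.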

Other observations

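Members were uneven over the genome. Per megabase of sequence that the rule allows, chromosome 13 had 4.71 members and chromosome 10 had 4.54, chromosome 7 had 1.98, and the X chromosome had 0.538, against 3.03 over all. Intergenic rows of the R406 list without a DMSO partner were also sparsest on the X chromosome, at 1.32 per megabase against 4.95 over all. The labels do not give the sex of the embryos.

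The window with most members was chr1:185000001-186000000, with 23, around Lyplal1, Mark1, Rab3gap2 and Slc30a10. The pseudogene Gm9722 in it was the nearest gene of 14 members, more than any other gene. The next megabase, with the growth factor gene Tgfb2, held 11. On the same chromosome 2 adjoining windows from 90000001 to 92000000 held 18 and 17, around Col6a3 and Ackr3 and then Twist2. A window on chromosome 6 with 14 members and a median R406 pileup of 33.5 held Met, Cav1, Cav2 and Wnt2. Met encodes the receptor of hepatocyte growth factor, and Cav1 the main coat protein of caveolae.

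Lpar1, a receptor of lysophosphatidic acid, had 7 members nearest to it, as many as Twist1. Within 100 kb of it 9 members had R406 pileups of 9 to 63 and DMSO pileups of 8 to 42. Of these 9, 7 were lower with R406 over background, where 50.1% of all members were. Lpar1 RNA was at 134 and 142 TPM with DMSO and 106 and 110 TPM with R406 (log2 change -0.35, limma adjusted p = 0.279). These windows and genes were picked after their counts were seen.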
